A study of Mus musculus with 2 samples.

Results

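Non-cycling C1q macrophages were chosen from 2 libraries of sorted tumour cells by a fixed rule on UMI counts. A member held at least 5 UMIs over C1qa, C1qb and C1qc and at least 1 UMI of Csf1r. It held at most 1 UMI over Cd79a and Cd79b, at most 1 over Cd3d and Cd3e, and under 20 over Col1a1, Col1a2 and Col3a1. It also held at most 1 UMI over the 6 cell cycle genes Mki67, Top2a, Cdk1, Birc5, Ube2c and Pclaf. The rule found 568 members among 2135 kept barcodes of the Met-1 transplant (26.6%, 24.7 to 28.5) and 138 among 592 of the PyMT tumour (23.3%, 19.96 to 26.9). In all, 706 of 2727 kept barcodes were members. These shares are of sorted cells. The values of the rule's own genes chose the cells and are given as description.

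Both libraries are 10x single-cell RNA of C57BL/6 inAd-Chaser-mTmG mice, which carry Adiponectin-rtTA, TRE-Cre and the Rosa26 mT/mG reporter. In these mice doxycycline is meant to switch adipocytes from membrane tdTomato to membrane EGFP, under the adiponectin promoter. The sorted cells were positive for EGFP and negative for tdTomato in both groups. One group came from a tumour labelled as a Met-1 xenograft, and the other from a PyMT breast tumour (PyMT is the polyoma middle T oncogene). The series description names EO771 as the implanted line, and the sample label is followed here. The sources used here give neither animal age nor the number of animals pooled. Each group is 1 library. The study asked whether adipocytes de-differentiate in breast tumours, and its description speaks of isolating fibroblasts.

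C1q is the recognition part of the classical complement pathway, a hexamer of trimers built from the products of C1qa, C1qb and C1qc. Tissue macrophages are its main source in the body. Macrophages that present antigen load peptides on MHC class II, a dimer of an alpha and a beta chain (such as H2-Aa with H2-Ab1). H2-Eb1 also encodes a beta chain, and its RNA does not show that a dimer with it was formed. The invariant chain Cd74 guides the class II dimer to the endosome, H2-DM exchanges the peptide, and Ciita switches the genes on.

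The Met-1 members had a median of 7436.5 UMIs per cell and the PyMT members 7477.5, so depth per member was close. The other kept barcodes had medians of 7975 UMIs in the Met-1 library and 2473.5 in the PyMT library. The members together held 4542977 UMIs in the Met-1 transplant and 1164809 in the PyMT tumour. The libraries shared 0 barcodes. Members carried a median of 101.5 C1q UMIs in the Met-1 transplant (6 to 594) and 126 in the PyMT tumour (5 to 373). Few sat near the limit: 8 Met-1 members and 2 PyMT members had 5 to 9 C1q UMIs. Just outside, 23 Met-1 barcodes and 10 PyMT barcodes had 1 to 4 C1q UMIs and met every other limit. The limit on cell cycle UMIs cut closer, with 73 Met-1 and 24 PyMT members at 1 UMI, and 24 Met-1 and 4 PyMT barcodes left out at 2 UMIs.

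The members were contrasted by their MHC class II RNA, so promoters of genes of that contrast are shown first. The windows run from 250 bases before to 50 bases after the start site (RefSeq, GRCm38.p6). H2-Aa and H2-Eb1 encode an alpha and a beta chain, and capitals mark CTNGCAAC, part of the X box, and ATTGG, the core of the Y box, on either strand. H2-DMb1 encodes a chain of the peptide exchanger and H2-M2 a non-classical MHC class I protein. Both were higher in the class II-high members described later, and only ATTGG is in capitals in these.
H2-Aa (chr17:34287774-34288073, minus strand): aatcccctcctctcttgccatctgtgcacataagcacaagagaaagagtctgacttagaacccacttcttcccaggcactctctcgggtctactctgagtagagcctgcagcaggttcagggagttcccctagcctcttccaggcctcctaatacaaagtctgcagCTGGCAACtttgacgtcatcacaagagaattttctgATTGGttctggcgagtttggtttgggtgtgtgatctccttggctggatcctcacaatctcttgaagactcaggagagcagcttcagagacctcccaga
H2-Eb1 (chr17:34305617-34305916, plus strand): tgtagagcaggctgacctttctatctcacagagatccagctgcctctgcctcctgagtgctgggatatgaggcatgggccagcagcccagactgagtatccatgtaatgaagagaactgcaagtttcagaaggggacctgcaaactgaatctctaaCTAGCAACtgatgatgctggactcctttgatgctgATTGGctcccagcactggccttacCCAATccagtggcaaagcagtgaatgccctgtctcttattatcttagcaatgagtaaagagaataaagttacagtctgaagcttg
H2-DMb1 (chr17:34152941-34153240, plus strand): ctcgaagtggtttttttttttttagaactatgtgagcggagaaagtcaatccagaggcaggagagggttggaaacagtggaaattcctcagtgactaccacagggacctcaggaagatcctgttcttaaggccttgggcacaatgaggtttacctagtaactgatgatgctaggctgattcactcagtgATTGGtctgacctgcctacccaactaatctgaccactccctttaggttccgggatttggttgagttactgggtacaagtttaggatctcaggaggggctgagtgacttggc
H2-M2 (chr17:37483505-37483804, minus strand): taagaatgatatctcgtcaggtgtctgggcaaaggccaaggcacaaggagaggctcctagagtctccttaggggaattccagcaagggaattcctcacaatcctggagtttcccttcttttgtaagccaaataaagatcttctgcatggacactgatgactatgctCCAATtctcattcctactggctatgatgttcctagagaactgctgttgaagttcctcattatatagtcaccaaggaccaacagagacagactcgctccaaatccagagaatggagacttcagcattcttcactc

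In H2-Aa, CTNGCAAC was followed by ATTGG after 28 bases, and in H2-Eb1 after 27 bases. The letters CTNGCAAC were chosen after these sequences were seen. CTNGCAAC was in 3.42% of the 32851 promoters in the table on either strand, and ATTGG in 37.4%. Both in that order, 10 to 40 bases apart, were in 42 promoters (0.128%). The windows of H2-DMb1 and H2-M2 hold ATTGG without CTNGCAAC, which says only that these letters are not in this window.

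The label was checked against the markers given with the rule. Adgre1, the F4/80 antigen, had 285 CPM in Met-1 members and 299.6 CPM in PyMT members, and was not used by the rule. An Adgre1 UMI was present in 78.9% of Met-1 members and 82.6% of PyMT members. In the T cell gate, which should lack it, the share was 2.63% of 266 Met-1 cells (median 7874 UMIs). Mrc1, the mannose receptor CD206, was low, with 32.4 CPM in Met-1 members and 27.5 CPM in PyMT members. Only 15.7% of Met-1 members and 16.7% of PyMT members held an Mrc1 UMI. The T cell gate had 0 of 266 Met-1 cells with Mrc1, which by a floor of 3 cells allows a share with a UMI of up to 1.13%. In the PyMT T cell gate (median 3750 UMIs) 0 of 36 cells held Adgre1 or Mrc1, which allows a share of up to 8.33% for each. C1q and Csf1r were used by the rule and cannot check the label, so Adgre1 and Mrc1 alone of the 6 markers bear on it. Most members held Adgre1 and a minority Mrc1. Lyve1 and Cd163, markers of resident perivascular macrophages, had 0 UMIs in both libraries. Folr2, of the same kind, had 1.10 CPM in Met-1 members and 10.3 CPM in PyMT members.

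Among the genes that stood furthest above the other barcodes in both libraries, outside the rule, were Apoe, H2-M2, Fcrls, Ms4a7, Ctss, Hpgds and Trem2. This is a description, since the rule chose these cells against those barcodes. Apoe, which carries lipid out of cells, had 36410 CPM in Met-1 members and 32647 CPM in PyMT members. The other barcodes had 4709 CPM in the Met-1 library and 4803 CPM in the PyMT library. Trem2, a receptor for lipids and dying cells, had 518 CPM in Met-1 members and 456 CPM in PyMT members. Fcrls, known from microglia, had 348 CPM in Met-1 members and 438 CPM in PyMT members. Cx3cr1, the fractalkine receptor, had 461 CPM in Met-1 members and 256 CPM in PyMT members.

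**Figure D1:**
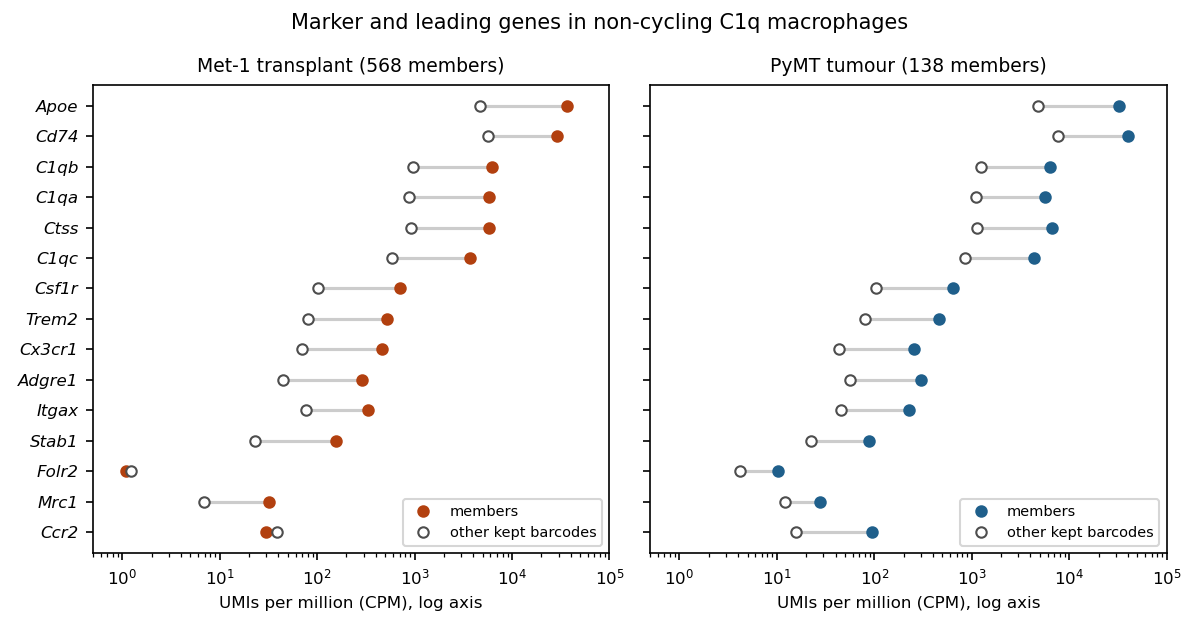
Levels of marker and leading genes (CPM, log axis) in the 568 Met-1 members (left) and the 138 PyMT members (right). Filled points are the members and open points the other kept barcodes of the same library. Apoe lies highest at 36410 CPM in the left panel. Folr2 and Ccr2 lie above the other barcodes in the PyMT panel alone.

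Genes of lysosomal digestion, Fc receptors and uptake were apart about as seldom as genes in general. Of 20 measured genes of cathepsins and lysosome, 0 were apart in either direction, against 5.94% of 9092 genes higher and 1.92% lower over all genes with 20 UMIs. Ctsb, a cysteine protease, had 3650.5 CPM in Met-1 members and 4601 CPM in PyMT members. Of 10 Fc receptor and adaptor genes, only Syk was apart, at 130 CPM in Met-1 members against 51.5 CPM in PyMT members. Syk is the kinase downstream of these receptors. Of 15 measured lipid-associated genes, Abca1 was higher and Spp1 lower in Met-1 members. Of 8 measured scavenger receptor genes, 0 were apart. Of 9 genes for clearing dead cells, Lrp1 was higher and Mfge8 lower in Met-1 members, where 51 of the 62 PyMT UMIs of Mfge8 came from 1 cell, and its PyMT level was 9.59 CPM without that cell, against 4.19 CPM in Met-1 members without their top cell. Of 15 pattern recognition genes 0 were apart, and Cd14, the lipopolysaccharide co-receptor, had 1858 CPM in Met-1 members and 1820.0 CPM in PyMT members.

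Members of the 2 tumours differed in growth factor, transcription factor and chemokine RNA. Of 3165 genes compared, 375 (11.8%) were at least 2-fold higher in Met-1 members than in PyMT members and 111 (3.51%) at least 2-fold lower. With 1 library per tumour, these differences have no replicate check, and the intervals cover counting error only. Vegfa, the main angiogenic growth factor, had 175 CPM (163 to 187) in Met-1 members against 16.3 CPM (9.82 to 25.5) in PyMT members, a 10.7-fold difference (6.81 to 17.9). A Vegfa UMI was present in 30.1% of Met-1 members and 10.1% of PyMT members, and in 15.8% of the Met-1 and 2.78% of the PyMT T cell gate. At 1000 UMIs per cell these shares were 11.1% of Met-1 members, 2.17% of PyMT members and 2.27% of the Met-1 T cell gate. Hgf, the ligand of the Met receptor, had 63.4 CPM in Met-1 members and 6.01 CPM in PyMT members (10.5-fold, 5.05 to 26.5). Pdgfb, which recruits pericytes, had 127 CPM in Met-1 members and 33.5 CPM in PyMT members (3.79-fold, 2.74 to 5.39). Of 12 measured growth factor genes, a list without Hgf, 3 were higher (Vegfa, Pdgfb and Plau) and 1 lower (Hbegf, 1.54 CPM in Met-1 members and 17.2 CPM in PyMT members).

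Some macrophage transcription factor genes were higher in Met-1 members. Zeb2, which keeps macrophage identity, had 448 CPM in Met-1 members and 142 CPM in PyMT members (3.17-fold, 2.70 to 3.73). Also higher were Runx1, at 222 CPM in Met-1 members and 81.6 CPM in PyMT members, and Runx3, at 418 CPM in Met-1 members and 191 CPM in PyMT members. Of 20 immediate early and heat shock genes, 7 were higher and 1 lower, with a median log2 ratio of 0.64 against 0.14 over all 9092 genes. Jun had 1498 CPM in Met-1 members and 421 CPM in PyMT members, and Atf3 had 2072 CPM in Met-1 members and 622 CPM in PyMT members. Both encode factors of the AP-1 and ATF families that cells switch on early after a stimulus. Jun also differed between the tumours in other cells, with log2 ratios of 0.91 in the T cell gate and 1.77 in the neutrophil gate. The part of differences common to other cells was not tested.

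Cxcl2 and some other chemokines were lower in Met-1 members. Cxcl2, which draws neutrophils, had 1463 CPM in Met-1 members and 4228 CPM in PyMT members (2.89-fold lower). The log2 ratio of Cxcl2 was -1.79 in the T cell gate and -1.39 in the neutrophil gate, against -1.53 in members. Of 9 measured CC chemokines, 0 were higher and 3 lower (Ccl6, Ccl7 and Ccl9), and of these Ccl6 had 152 of its 355 PyMT UMIs in 1 cell. Without the top cell of each library Ccl6 had 81.6 CPM in Met-1 members and 177 CPM in PyMT members. Ccl2, which draws monocytes, was not apart, with 114 CPM in Met-1 members and 203 CPM in PyMT members. Of 7 measured CXC chemokines, 1 was higher (Cxcl9) and 3 lower (Cxcl1, Cxcl2 and Pf4). Over all 9092 genes 5.94% were higher and 1.92% lower. Tnf had 116 CPM in Met-1 members and 279 CPM in PyMT members (2.41-fold lower, 2.09 to 2.77). Hmox1, which degrades haem, had 155 CPM in Met-1 members and 457 CPM in PyMT members, where 193 of 532 UMIs came from 1 cell. Without the top cell of each library Hmox1 had 135 CPM in Met-1 members and 295 CPM in PyMT members. Ccr2, the monocyte chemokine receptor, had 29.9 CPM in Met-1 members and 93.6 CPM in PyMT members, and a UMI in 6.51% of Met-1 members and 21.7% of PyMT members. Cxcr4, the receptor of Cxcl12, went the other way, with 461 CPM in Met-1 members and 194 CPM in PyMT members.

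Polarization genes gave no single direction. Of 9 measured genes of classical activation, 1 was higher (Cxcl9) and 1 lower (Tnf), and Il1b had 3224 CPM in Met-1 members and 2997 CPM in PyMT members. Of 10 measured genes of alternative activation, 0 were higher and 3 lower (Arg1, Ccl22 and Il10), all under 40 CPM in both libraries, and 25 of the 26 PyMT Ccl22 UMIs came from 1 cell. Of 26 interferon-stimulated genes, 3 were higher (Cxcl9, Ifit2 and Rsad2) and 0 lower. Without the top cell of each library Rsad2 had 64.2 CPM in Met-1 members and 28.6 CPM in PyMT members, less than 2-fold by (CPM + 10). Beside these 3 lists, 5.94% of all 9092 genes were higher and 1.92% lower. Havcr2, the checkpoint receptor TIM-3, had 211 CPM in Met-1 members and 86.7 CPM in PyMT members. Mmp12, macrophage elastase, had 419 CPM in Met-1 members and 144 CPM in PyMT members, with a UMI in 28.2% of Met-1 and 28.3% of PyMT members.

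Several of the furthest genes had the same direction in the other barcodes. The milk protein gene Csn3 had 5.72 CPM in Met-1 members and 946 CPM in PyMT members, where 773 of 1102 UMIs came from 1 cell and the level was 288 CPM without it. Lcn2, which binds bacterial siderophores, had 5.50 CPM in Met-1 members and 1028.5 CPM in PyMT members, with 592 of 1198 UMIs in 1 cell and 528 CPM without it. The 7 epithelial markers summed to 84.3 CPM in Met-1 members and 1271 CPM in PyMT members, and 4 of 6 measured ones were lower. In the other barcodes they summed to 2163 CPM in the Met-1 library and 13321 CPM in the PyMT library. The 8 neutrophil markers summed to 191 CPM in Met-1 members and 638 CPM in PyMT members. The 7 fibroblast markers summed to 106 CPM in Met-1 members and 18.0 CPM in PyMT members, and to 10836 CPM and 1310 CPM in the other barcodes of those libraries. Gzmc, a granzyme of killer cells, had 58.99 CPM in Met-1 members, of which 189 of 268 UMIs were in 1 cell, and 0 UMIs in PyMT members (at least 22.9-fold higher). Without that cell Gzmc had 17.5 CPM in Met-1 members. Without the 9 Met-1 and 12 PyMT members that held at least 5 UMIs over 5 epithelial genes or over S100a8 and S100a9, left out after seeing the data, 370 genes were higher and 91 lower. The part of these other cells in single genes was not tested.

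Some differences were of like or greater size in other cell gates. Hspa1b, a heat shock gene, had 394 CPM in Met-1 members and 44.6 CPM in PyMT members (log2 ratio 2.88), and log2 ratios of 2.79 in the T cell gate and 3.33 in the neutrophil gate. Hnrnpa0, an RNA-binding protein gene, had a log2 ratio of 2.88 in members, 3.85 in the T cell gate and 2.98 in the neutrophil gate. The gate ratios of both genes rest on few PyMT UMIs. Hspa1b had 37.9 CPM in the PyMT T cell gate and 15.5 CPM in the PyMT neutrophil gate. Hnrnpa0 had 27.1 CPM and 31.0 CPM there, and the floor of 3 counts is 16.3 CPM and 11.6 CPM in these gates. Of 227 genes higher in Met-1 members that could also be measured in at least 2 of the T cell, B cell and neutrophil gates, 100 (44.1%) were also 2-fold higher in the median of those gates. Of 83 lower genes, 47 (56.6%) were also lower there. The same shares over all 2221 genes measured in at least 2 gates were not computed, so these overlaps have no background beside them. The PyMT gates were also small, with 184464 UMIs for T cells, 65355 for B cells and 258470 for neutrophils. These gates were compared after seeing the data. Cxcr4 had a median log2 ratio of -0.12 in the T cell, B cell and neutrophil gates, against 1.21 in members. Zeb2 had no ratio in the T cell gate. Its log2 ratio was 0.17 in the B cell gate and -0.06 in the neutrophil gate, against 1.60 in members. The B cell ratio of Zeb2 rests on 61.2 CPM in the PyMT gate, where the floor of 3 counts is 45.9 CPM.

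Of the other genes named by size, Neurl3, a ubiquitin ligase gene, had 699.5 CPM in Met-1 members and 142 CPM in PyMT members (4.94-fold), with log2 ratios of 1.77 in the T cell gate and 1.46 in the neutrophil gate. Irf2bp2, a transcriptional cofactor of IRF2, had 422 CPM in Met-1 members and 84.99 CPM in PyMT members. Lars2, the mitochondrial leucyl-tRNA synthetase, had 127 CPM in Met-1 members and 9.44 CPM in PyMT members. Its log2 ratio of 2.81 in members stood beside 3.35 in the T cell gate, 2.58 in the B cell gate and 3.55 in the neutrophil gate. Those 3 gate ratios are uncertain, since the PyMT levels behind them were 10.8, 30.6 and 7.74 CPM. Each lies under the floor of 3 counts for its gate (16.3, 45.9 and 11.6 CPM). Mgp, a matrix protein of fibroblasts, had 50.4 CPM in Met-1 members and 1.72 CPM in PyMT members, beside 3986 CPM and 130 CPM in the other barcodes of those libraries. Lncpint, Cep350 and Fam189a2 were also among the 12 highest. Marcksl1, an actin regulator, had 18.9 CPM in Met-1 members and 191 CPM in PyMT members, beside 49.8 CPM and 467 CPM in the other barcodes of those libraries. Ifitm1, an interferon-induced membrane protein gene, had 15.2 CPM in Met-1 members and 109.9 CPM in PyMT members, beside 126 CPM and 769 CPM in the other barcodes. Phlda1 had 50.2 CPM in Met-1 members and 223 CPM in PyMT members, beside 166 CPM and 883 CPM in the other barcodes. Cd24a and Cyr61 were lower as well, in members and in the other barcodes, and 49 of the 100 PyMT UMIs of Cyr61 were in 1 cell. Sap18b and Vmn1r13 were among the 12 lowest too, but have near-identical copies and are uncertain.

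The remaining lists differed in how many genes were apart, against 5.94% higher and 1.92% lower over all 9092 genes. Among complement genes 1 of 11 was lower in Met-1 members (Cfb, factor B, 7.92 CPM in Met-1 members and 41.2 CPM in PyMT members). Among costimulation and checkpoint genes Havcr2 alone of 10 was apart. Matrix genes had 3 of 11 higher (Mmp12, Thbs1 and Sparc), and iron handling genes 3 of 12 lower (Hmox1, Mt2 and Ftl1, the ferritin light chain). Hypoxia and glycolysis genes had 1 of 19 higher (Vegfa) and 1 lower (Eno1). None of the 8 class II, 11 class I, 15 fatty acid or 14 oxidative phosphorylation genes measured was apart. Markers of T, NK and B cells were low in members. Those of T cells summed to 17.4 CPM in Met-1 members and 12.9 CPM in PyMT members. Those of NK cells summed to 28.8 CPM in Met-1 members and 17.2 CPM in PyMT members. Those of B cells summed to 134 CPM in Met-1 members and 104 CPM in PyMT members. Conventional dendritic cell markers summed to 22.9 CPM in Met-1 members and 18.9 CPM in PyMT members, with Zbtb46 at 0 in both. Monocyte markers summed to 90.2 CPM in Met-1 members and 248 CPM in PyMT members, and 2 of 5 measured (Ccr2 and Plac8) were lower. Plasmacytoid dendritic cell markers were not low, and summed to 1405 CPM in Met-1 members and 782 CPM in PyMT members. In the other barcodes they summed to 932 CPM in the Met-1 library and 563 CPM in the PyMT library. Of 3 measured plasmacytoid dendritic cell markers, Tcf4 was higher in Met-1 members. Pericyte, endothelial, mast cell and red cell markers each summed to under 25 CPM in both.

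**Figure D2:**
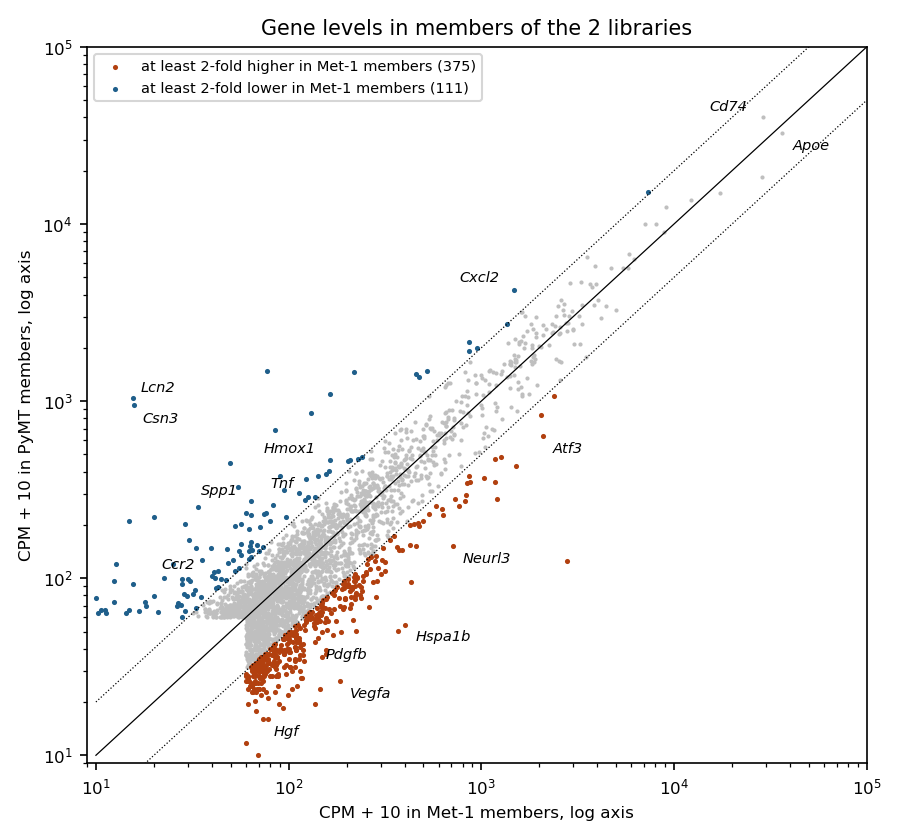
Level of each of 3165 genes in Met-1 members (x axis) against PyMT members (y axis), as CPM + 10 on log axes, 1 point per gene. The solid line marks equal levels and the dotted lines a 2-fold difference. The 375 genes higher in Met-1 members lie to the lower right and include Vegfa, Hgf and Pdgfb, and the 111 lower genes lie to the upper left and include Cxcl2, Tnf and Lcn2.

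The members spread over a wide range of MHC class II RNA in both tumours. The share of a cell's UMIs in H2-Aa, H2-Ab1 and H2-Eb1 had a median of 2.62% in Met-1 members (0 to 10.3%) and 3.32% in PyMT members (0.0284 to 9.73%). Under 0.5% were 74 Met-1 members (13.03%) and 16 PyMT members (11.6%). Each library was cut at its own median into class II-high and class II-low members. Within 20% of the cut lay 115 Met-1 and 37 PyMT members, so these are ranges of 1 measure and not cell types. Median depth was 7048.5 UMIs in class II-high and 7805.5 in class II-low Met-1 members, and 7238 in class II-high and 9514 in class II-low PyMT members. The 3 genes that made the cut are not results.

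Most measured class II presentation genes outside the cut were higher in class II-high members. Of 2441 genes compared, 8 (0.328%) were at least 2-fold higher in the class II-high members of both libraries and 9 (0.369%) at least 2-fold lower, the 3 genes of the cut among the 8. Of 8 measured class II presentation genes, 7 were higher in the class II-high members of both libraries, and 1 of them (Cd74) at least 2-fold. The median log2 ratios of the 8 were 0.85 in Met-1 and 0.65 in PyMT members. The median over all 2441 genes was -0.14 in Met-1 and -0.08 in PyMT members. Over the 9092 genes with 20 UMIs, 16.3% were higher by any amount in both libraries and 41.8% lower, and 0.099% were at least 2-fold higher and 0.154% at least 2-fold lower. Cd74 had 45062 CPM in class II-high and 14808 CPM in class II-low Met-1 members (3.04-fold, 3.01 to 3.08). It had 62859 CPM in class II-high and 22627 CPM in class II-low PyMT members (2.78-fold, 2.72 to 2.83). H2-DMb1 had 897 CPM in class II-high and 420 CPM in class II-low Met-1 members, and 937 CPM in class II-high and 535 CPM in class II-low PyMT members. Ciita had 111 CPM in class II-high and 42.9 CPM in class II-low Met-1 members. In PyMT members it had 58.95 CPM in class II-high and 45.7 CPM in class II-low cells, where its ratio interval of 0.751 to 2.21 includes 1. The PyMT ratio intervals of H2-Oa (0.937 to 3.75) and H2-Ob (0.707 to 7.19) also include 1.

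H2-M2, the class I-like gene whose promoter was shown, went with class II. It had 383 CPM in class II-high and 57.5 CPM in class II-low Met-1 members (6.66-fold, 5.56 to 8.04), and 424 CPM in class II-high and 82.3 CPM in class II-low PyMT members (5.16-fold, 3.81 to 7.08). Other class I genes differed less: of 11 class I and peptide loading genes, 0 were apart and 6 were higher in both libraries. The share higher in both libraries was 16.3% over all 9092 genes. Dnase1l3, a secreted nuclease that digests DNA in microparticles, had 105 CPM in class II-high and 35.4 CPM in class II-low Met-1 members, and 139.5 CPM in class II-high and 32.0 CPM in class II-low PyMT members. Dusp2, a phosphatase of MAP kinases, had 159 CPM in class II-high and 72.1 CPM in class II-low Met-1 members, and 515 CPM in class II-high and 224 CPM in class II-low PyMT members. Il1b had 4378 CPM in class II-high and 2192 CPM in class II-low Met-1 members, and 3641 CPM in class II-high and 2497 CPM in class II-low PyMT members. C1qa, C1qb and C1qc had log2 ratios between -0.10 and 0.19, all within 2-fold.

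Glycolysis and hypoxia genes were lower in class II-high members of both tumours. Of 19 measured genes, 17 were lower in the class II-high members of both libraries and 0 higher, 3 of them at least 2-fold (Bnip3, Mif and Pgk1). The list medians were -0.93 in Met-1 members and -0.71 in PyMT members. Over all 9092 genes with 20 UMIs, 41.8% were lower by any amount in both libraries and 16.3% higher. Bnip3, a mitophagy receptor induced by low oxygen, had 27.5 CPM in class II-high and 90.9 CPM in class II-low Met-1 members (3.30-fold lower, 2.47 to 4.48), and 19.65 CPM in class II-high and 101 CPM in class II-low PyMT members (5.12-fold lower, 2.62 to 11.2). Mif, a cytokine, had 251 CPM in class II-high and 620.3 CPM in class II-low Met-1 members, and 336 CPM in class II-high and 802 CPM in class II-low PyMT members. Pgk1, a glycolytic kinase, had 116 CPM in class II-high and 255 CPM in class II-low Met-1 members, and 114 CPM in class II-high and 287 CPM in class II-low PyMT members. Slc16a3, the lactate exporter, had 54.6 CPM in class II-high and 131 CPM in class II-low Met-1 members, and 41.3 CPM in class II-high and 137 CPM in class II-low PyMT members. Hif1a, a subunit of the hypoxia factor, had 65.3 CPM in class II-high and 62.95 CPM in class II-low Met-1 members, and 41.3 CPM in class II-high and 73.2 CPM in class II-low PyMT members.

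The hypoxia factor HIF binds sites around ACGTG, and the promoters of Bnip3 and Mif are shown with these letters in capitals, on either strand, as 2 genes of the list that were apart.
Bnip3 (chr7:138909457-138909756, minus strand): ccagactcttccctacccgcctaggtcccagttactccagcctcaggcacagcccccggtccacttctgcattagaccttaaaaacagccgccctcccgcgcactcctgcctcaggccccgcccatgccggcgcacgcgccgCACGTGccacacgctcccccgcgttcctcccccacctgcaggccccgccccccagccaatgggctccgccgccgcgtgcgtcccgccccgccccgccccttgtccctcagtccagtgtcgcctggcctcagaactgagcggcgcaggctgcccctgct
Mif (chr10:75860228-75860527, minus strand): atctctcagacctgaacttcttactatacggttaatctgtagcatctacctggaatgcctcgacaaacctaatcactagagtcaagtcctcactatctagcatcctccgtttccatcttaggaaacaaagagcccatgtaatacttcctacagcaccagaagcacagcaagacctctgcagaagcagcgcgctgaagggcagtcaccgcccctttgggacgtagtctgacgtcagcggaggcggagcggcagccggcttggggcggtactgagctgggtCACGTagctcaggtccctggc

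Of the 19 genes of the list with a promoter in the table, 14 held ACGTG in at least 1 promoter window, against 21.8% of all 27025 genes in the table. The list was drawn up from genes known to respond to low oxygen or to run glycolysis, so this share is a description of the list.

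Class II-low members also had more RNA of single genes of growth, lipid carriage and iron handling. Igf1, insulin-like growth factor, had 29.4 CPM in class II-high and 118 CPM in class II-low Met-1 members (4.03-fold lower, 3.06 to 5.38), and 13.8 CPM in class II-high and 107 CPM in class II-low PyMT members (7.76-fold lower, 3.57 to 20.005). Fabp5, a fatty acid carrier, had 62.96 CPM in class II-high and 275 CPM in class II-low Met-1 members (4.37-fold lower, 3.63 to 5.30), and 124 CPM in class II-high and 372 CPM in class II-low PyMT members. Ctsd, the lysosomal aspartic protease, had 1344 CPM in class II-high and 3379 CPM in class II-low Met-1 members, and 1727 CPM in class II-high and 4036 CPM in class II-low PyMT members. Ctsd was the 1 apart among the 20 cathepsin and lysosome genes: Ctsb had 3165 CPM in class II-high and 4085 CPM in class II-low Met-1 members. Of 12 iron handling genes, 9 were lower in the class II-high members of both libraries, and Hmox1 and Mt2 at least 2-fold. Hmox1 had 90.9 CPM in class II-high and 212 CPM in class II-low Met-1 members, and 102 CPM in class II-high and 732 CPM in class II-low PyMT members, with 193 of the 480 UMIs of the class II-low members in 1 cell and 449 CPM without it. Of 14 oxidative phosphorylation genes, 12 were lower in the class II-high members of both libraries and 0 at least 2-fold. Their medians were -0.34 in Met-1 and -0.40 in PyMT members. Over all 9092 genes with 20 UMIs, 41.8% were lower by any amount in both libraries. Of 14 genes of matrix and proteases, Adam8 alone among 11 measured was at least 2-fold lower in the class II-high members of both libraries.

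The lipid-associated program did not move as a block. Of 15 measured genes, 7 were lower and 1 higher in the class II-high members of both libraries, and 7 had opposite signs. Among all 9092 genes with 20 UMIs, 41.8% were lower and 16.3% higher in both libraries. Trem2 had 375 CPM in class II-high and 646 CPM in class II-low Met-1 members, and 415 CPM in class II-high and 488 CPM in class II-low PyMT members. Lgals3 had 1221 CPM in class II-high and 2091 CPM in class II-low Met-1 members, but 2610 CPM in class II-high and 1726 CPM in class II-low PyMT members. Apoe had 39790 CPM in class II-high and 33388 CPM in class II-low Met-1 members. Spp1, osteopontin, had 41.0 CPM in class II-high and 65.0 CPM in class II-low Met-1 members, and 88.4 CPM in class II-high and 398 CPM in class II-low PyMT members, with 137 of 261 UMIs of the class II-low members in 1 cell and 194 CPM without it.

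RNA of other cells also differed with class II. The epithelial markers summed to 86.3 CPM in class II-high and 82.5 CPM in class II-low Met-1 members, and to 228 CPM in class II-high and 2080 CPM in class II-low PyMT members. The neutrophil markers summed to 329.7 CPM in class II-high and 67.5 CPM in class II-low Met-1 members, and to 238 CPM in class II-high and 948 CPM in class II-low PyMT members. Without the same 9 Met-1 and 12 PyMT members, 6 of the 8 higher genes and all 9 lower genes were still apart. Dusp2 and Cxcl1 were then no longer apart, and Bhlhe41 was added to the lower genes.

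**Figure D3:**
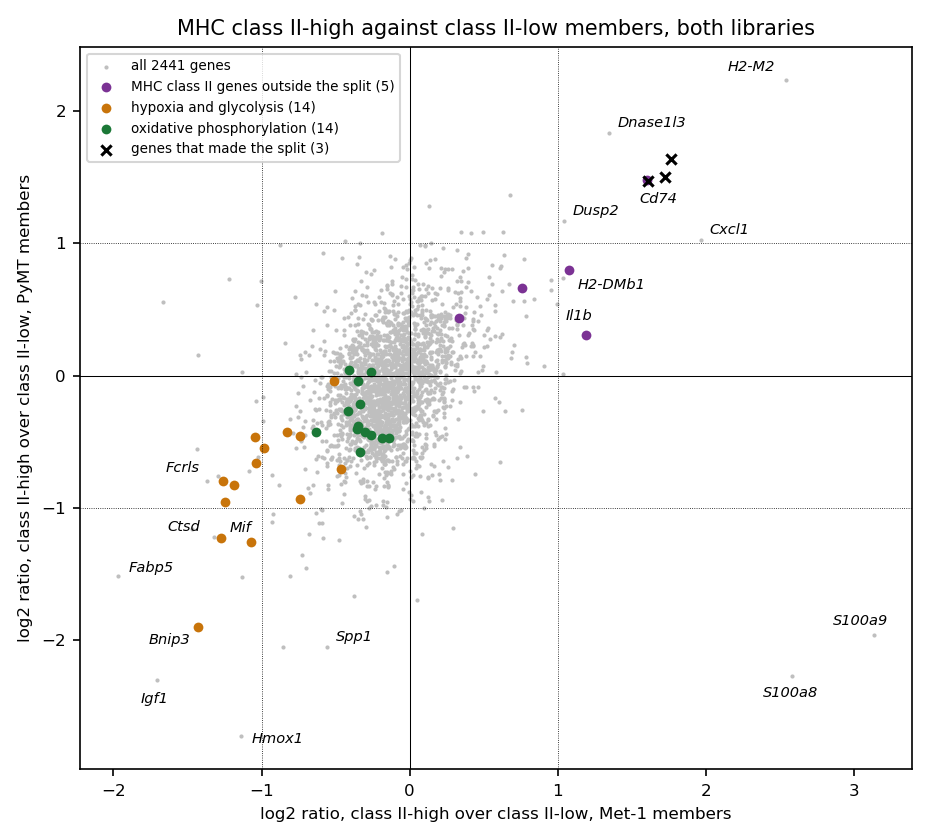
Log2 ratio of class II-high over class II-low cells in Met-1 members (x axis) and in PyMT members (y axis), 1 point per gene, 2441 genes. Dotted lines mark 2-fold. Class II genes outside the cut lie to the upper right with H2-M2 and Dnase1l3, and glycolysis and hypoxia genes to the lower left with Igf1, Fabp5 and Ctsd. S100a8 and S100a9 lie to the lower right.

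Finer steps were taken after seeing the data, as 4 quartiles of the class II share from low to high. H2-M2 had 26.7, 88.2, 245 and 543 CPM in Met-1 members, and 37.0, 151, 235 and 622 CPM in PyMT members. It was higher in each quartile than in the one before, in both tumours. Ctsd ran the other way, with 4423, 2341, 1521 and 1139 CPM in Met-1 members, and 5646, 2443, 2075 and 1314 CPM in PyMT members. Fabp5 had 384, 167, 75.7 and 48.3 CPM in Met-1 members, and 530.4, 209, 167 and 82.1 CPM in PyMT members. The widest step of Ctsd and Fabp5 was between the first quartile and the next. Il1b did not keep step: it had 1341, 3040, 4215 and 4566 CPM in Met-1 members, and 1388, 3897, 3514 and 3320 CPM in PyMT members. In PyMT members its level was lowest in the first quartile, and highest in the next. The sum of 9 glycolysis genes was 5757, 3998, 2637 and 1933 CPM in Met-1 members, and 6392, 5299.9, 4571 and 2654 CPM in PyMT members.

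**Figure D4:**
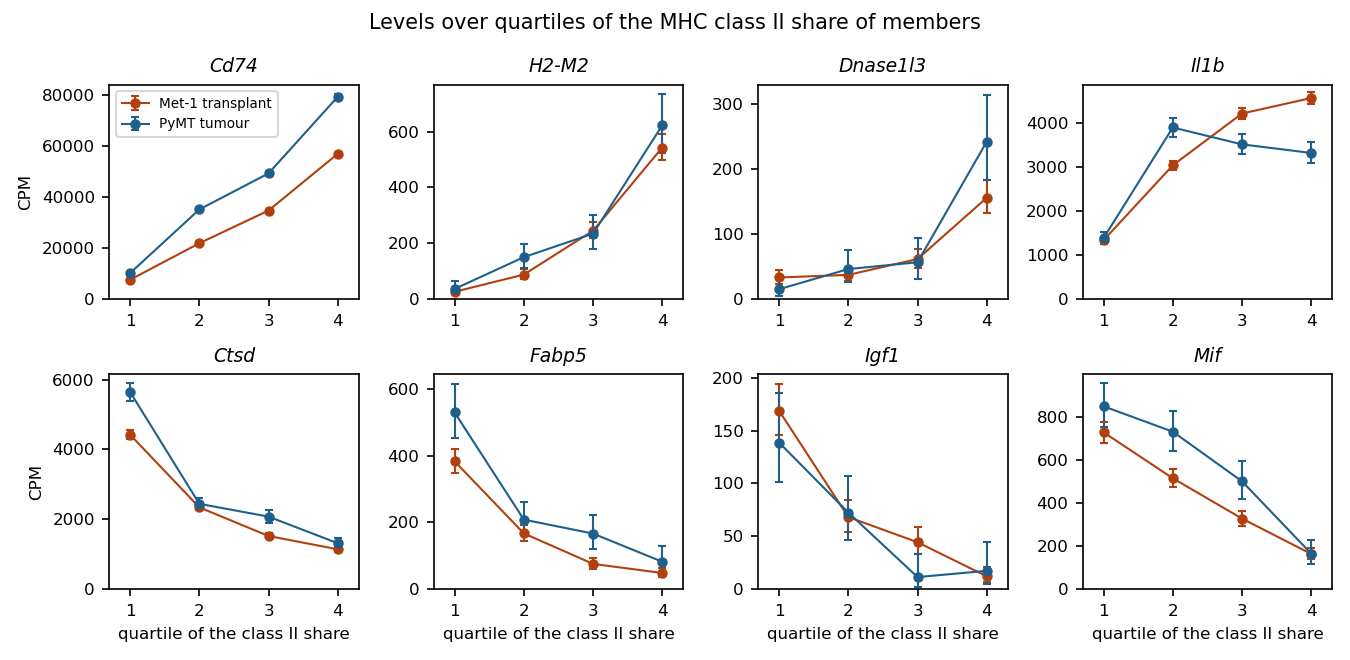
Level (CPM) of 8 genes over quartiles 1 to 4 of the class II share, lowest to highest, in Met-1 members (orange) and PyMT members (blue). Bars are exact 95% Poisson intervals. Cd74, H2-M2 and Dnase1l3 are highest in quartile 4 of both tumours, and Ctsd, Fabp5, Igf1 and Mif highest in quartile 1.

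Cycling C1q macrophages met the same rule but held at least 2 cell cycle UMIs, and numbered 81 Met-1 cells and 19 PyMT cells. They were deeper, with medians of 10835 UMIs in the Met-1 transplant and 10942 in the PyMT tumour. The part of this depth in the contrast was not tested. Of 2567 genes compared, 2 (0.0779%) were at least 2-fold higher in the members of both libraries than in cycling cells, and 61 (2.38%) at least 2-fold lower. The 61 include the genes of the rule and others of division such as Stmn1, Cdca3, Tk1, Cdca8 and Ccna2. Stmn1, which disassembles microtubules, had 25.3 CPM in Met-1 members against 571 CPM in cycling cells, and 42.9 CPM in PyMT members against 630 CPM in cycling cells. The 2 higher ones were S100a9, a neutrophil gene, and the unnamed locus Gm26522. In Met-1 members 274 of the 300 S100a9 UMIs were in 1 cell. Without the top cell of each group S100a9 had 5.74 CPM in Met-1 members against 2.85 CPM in cycling cells, and 143 CPM in PyMT members against 43.5 CPM in cycling cells. Apoe, Cebpa and Cd74 were higher in the members of both libraries by less than 2-fold in Met-1 members. Apoe had 36410 CPM in Met-1 members against 20583 CPM in cycling cells, and 32647 CPM in PyMT members against 15930 CPM in cycling cells. Cebpa, a myeloid factor that also restrains division, had 542 CPM in Met-1 members against 286 CPM in cycling cells, and 299.6 CPM in PyMT members against 137 CPM in cycling cells. Cd74 had 29088 CPM in Met-1 members against 17972 CPM in cycling cells, and 40204 CPM in PyMT members against 24129 CPM in cycling cells. C1qa, at 5767 CPM in Met-1 members and 5531 CPM in cycling cells, was close in the Met-1 transplant, and had 5667 CPM in PyMT members and 4845 CPM in cycling cells.

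Monocytes met the same limits but held at least 2 UMIs over Ccr2 and Ly6c2 and at most 1 C1q UMI. They numbered 15 in the Met-1 transplant and 2 in the PyMT tumour, so members and monocytes were compared in the Met-1 transplant alone. Of 3477 genes, 667 (19.2%) were at least 2-fold higher in the members and 436 (12.5%) at least 2-fold lower. Besides the C1q genes of the rule, Ms4a7, a membrane gene of mature macrophages, had 1400 CPM in members and 1 UMI in monocytes (6.38 CPM, 0.161 to 35.5). Apoe had 36410 CPM in members and 1913 CPM in monocytes. H2-Ab1 had 9125 CPM in members and 1671 CPM in monocytes, and Trem2 518 CPM in members and 121 CPM in monocytes. Mmp12 had 419 CPM in members and 0 UMIs in monocytes (at least 21.9-fold higher). Genes of circulating monocytes were lower in members. Plac8 had 30.8 CPM in members and 4502 CPM in monocytes, S100a4 37.9 CPM in members and 2321 CPM in monocytes, and F13a1, a clotting factor chain, 1 UMI in members against 338 CPM in monocytes. Mrc1 had 32.4 CPM (27.3 to 38.03) in members and 70.1 CPM (35.0 to 126) in monocytes. It was 2.17-fold lower in members (1.06 to 3.99), but its 11 monocyte UMIs came from 2 of the 15 cells.

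EGFP, the mark of the tracing and of the sort, was present in the members of both tumours. It had 4164 CPM (4105 to 4224) in Met-1 members and 2937 CPM (2839 to 3037) in PyMT members, a ratio of 1.42 (1.37 to 1.47). No EGFP UMI was seen in 16 Met-1 members and 18 PyMT members. By cell, the median was 3140 CPM in Met-1 members and 2714 CPM in PyMT members. Met-1 members had 3695 CPM when class II-high and 4584 CPM when class II-low. PyMT members had 3056 CPM when class II-high and 2845 CPM when class II-low. The neutrophil gate had more EGFP than the members, with 9786 CPM in the Met-1 transplant and 9297 CPM in the PyMT tumour. Met-1 monocytes had 7613 CPM. The B cell gate had 3291 CPM in the Met-1 transplant and 76.5 CPM in the PyMT tumour. EGFP was also higher in the Met-1 library in the T cell gate (2445.5 against 1285 CPM) and, when summed, in the other kept barcodes (3208 against 2599 CPM). By cell, the medians of the other kept barcodes went the other way, at 2810 CPM in the Met-1 library and 3386 CPM in the PyMT library. In the epithelial gate the summed EGFP level was lower in the Met-1 transplant, with 889 CPM against 2637 CPM in the PyMT tumour. By cell, the medians of that gate were close, at 154 CPM in the Met-1 transplant and 176 CPM in the PyMT tumour. Of the 8 adipocyte markers, Adipoq, Cidec, Lep, Adrb3 and Retn had 0 UMIs in the members of both libraries. The others were present: Pparg had 20.9 CPM in Met-1 members and 15.5 CPM in PyMT members. Plin1 had 1.10 CPM in Met-1 members and 4.29 CPM in PyMT members. Fabp4 had 1.54 CPM in Met-1 members and 1.72 CPM in PyMT members.

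**Figure D5:**
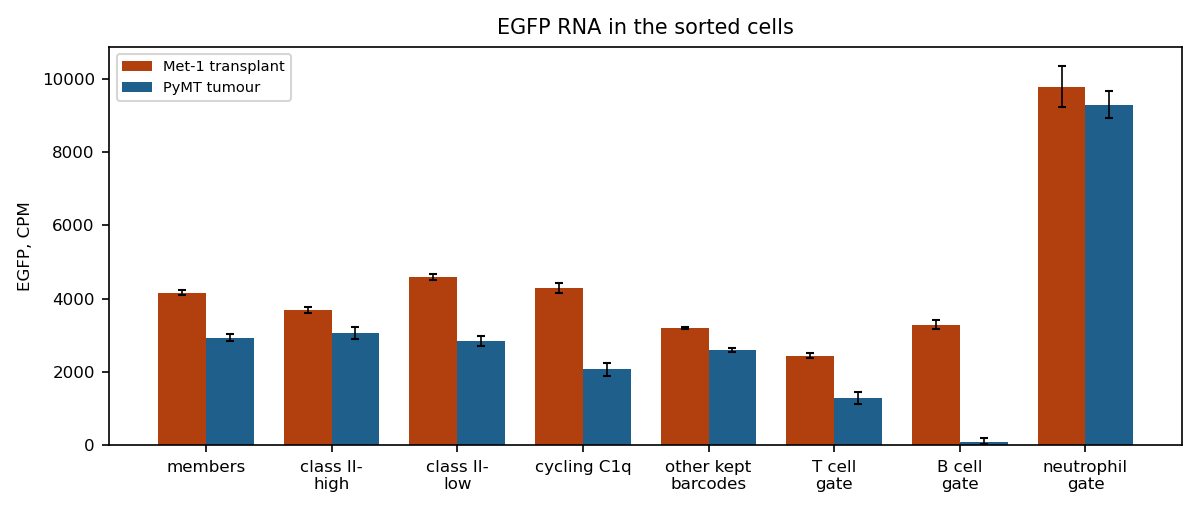
EGFP RNA (CPM, summed over the cells of each group) in the Met-1 transplant (left bars) and the PyMT tumour (right bars). Bars carry exact 95% Poisson intervals. Members lie at 4164 CPM (Met-1) and 2937 CPM (PyMT), under the neutrophil gate of both tumours, and the PyMT B cell gate is lowest at 76.5 CPM.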

How the data were processed

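The authors deposited whole-number UMI counts of genes by barcodes. Cell Ranger 3.1.0 and build mm10 are named in the submitters' processing notes, with no annotation release. Both tables list 31054 gene rows.

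Kept barcodes had 500 UMIs or more, of which the 13 mitochondrial genes made up 10% or less. UMI counts were summed over cells and given as CPM (UMIs per 1000000 of the summed UMIs). Intervals are exact 95% intervals (Poisson for CPM, conditional binomial for ratios, Clopper-Pearson for shares) and cover counting error only. There was 1 library per group, so no test was made. Genes at 50 CPM or more in either group were compared and are called apart when (CPM + 10) differs at least 2-fold. Log2 ratios are of (CPM + 10). A gene at 0 in 1 group has a bound from a floor of 3 counts over that group. List members count as measured with at least 20 UMIs in 1 library. Contrasts within a library had to agree in sign in both libraries. Doublet calls came from Scrublet in scanpy 1.11.5: 20 of 2135 kept Met-1 barcodes (2 of them members) and 0 of 592 kept PyMT barcodes. They were left in, and leaving them out is among the alternatives.

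Named are the 12 highest and 12 lowest genes between the libraries, the 10 highest and 10 lowest in each other contrast, and the 2 highest and 2 lowest of each gene list. They needed a UMI in at least 10% of the cells of the higher group. Rows for antisense RNAs, pseudogenes, Rik and Gm-numbered loci, haemoglobins, ribosomal proteins and mitochondrial genes are not named. Other genes are named as members of a list. The members, the 25 gene lists and the 15 marker lists were chosen with earlier results of these data known. Results that need items withheld for evaluation, among them the counts of 2 gene lists between the libraries, are not reported here. The contrast with monocytes was planned in both libraries and is given for the Met-1 transplant alone. The ratio calculation was checked on simulated counts with known folds. Promoter sequences are from RefSeq (GRCm38.p6). Python 3.11.15, numpy 2.4.6, scipy 1.17.1 and pandas 2.3.3 were used.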

Additional observations from a re-analysis of the deposited data

Results flagged for a closer look

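S100a8, a neutrophil calcium-binding protein gene, differed with class II in opposite directions in the 2 libraries. Its log2 ratio of class II-high over class II-low was 2.58 in Met-1 members and -2.27 in PyMT members, and this difference was not tested. In Met-1 members 170 of its 202 UMIs, and in PyMT members 131 of its 372 UMIs, came from 1 cell.

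In the Met-1 transplant, 29 barcodes left out for over 10% mitochondrial UMIs met every other limit of the rule. These cells enter no comparison.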

How the results depend on the processing

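No paired analysis was possible because each group is 1 library. With the rule applied to 1000 UMIs per barcode, members were 17.1% of kept Met-1 barcodes and 17.4% of kept PyMT barcodes, against 26.6% and 23.3%. EGFP was then 1.60-fold higher in Met-1 members, and 1.25-fold higher as a mean over cells, against 1.42. Of genes apart between Met-1 and PyMT members (375 higher, 111 lower), 128 higher and 12 lower ones also stood 2-fold above the other barcodes of the higher library. After subtraction of the median ratio in 3 other cell gates (chosen after seeing the data) 84 were higher and 85 lower among 2221 genes, of which 25 and 21 had been called before. Genes lower in class II-high members numbered 27 between the outer terciles and 17 with a split on Cd74, against 9. Genes higher in members than in cycling cells numbered 91 in the rule at 1000 UMIs, where 14 Met-1 and 2 PyMT cycling cells remained, 4 with a mean over cells, 4 without the top cell of each gene and 0 with at least 20 UMIs in each group, against 2. Lower ones numbered 143 at 1000 UMIs and 35 with 20 UMIs, against 61. Between members and Met-1 monocytes, 57 were higher and 236 lower with 20 UMIs in each group, and 282 lower without the top cell, against 667 higher and 436 lower. With the rule at 1000 UMIs, 1 monocyte remained and this contrast was not run. The causes of these changes were not tested. The planned contrast with PyMT monocytes was not run, for its 2 cells. Other alternatives kept each of these counts within 1.5 times. The 24 genes named by size between the libraries, 20 between class II-high and class II-low members and 20 against cycling cells gave 264, 300 and 200 recomputed values. None changed sign, and 55, 29 and 24 moved. Genes named from lists or against monocytes were not recomputed.

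With 1 library per tumour, no difference between the tumours can be told apart from a difference between mice, sorts or runs. By the floor of 3 counts, a count of 0 allows up to 2.58 CPM over the PyMT members and 5.90 CPM over class II-high PyMT members. It allows up to 11.4 CPM over PyMT cycling cells and 19.1 CPM over Met-1 monocytes. These limits cover counting error only, and not the spread between cells.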

Other observations

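Some secreted factors were carried by few members in both tumours. The genes named here were chosen after their values were seen, from 2071 genes at 50 CPM or more in the members of both libraries, as those present in the fewest cells for their level. The 29 Met-1 members (5%) with the most Cxcl10 UMIs held 83.6% of them, and the 7 such PyMT members 57.1%. Cxcl10 is an interferon-induced chemokine of T cells, and a UMI was present in 93 of 568 Met-1 members and 39 of 138 PyMT members. For Ccl2, the monocyte chemokine, these top members held 72.9% of UMIs in the Met-1 transplant and 66.1% in the PyMT tumour. For Gdf15, a stress-induced hormone, they held 84.7% in the Met-1 transplant and 70.2% in the PyMT tumour. Mmp12, macrophage elastase, had 64.1% of its UMIs in the top Met-1 members and 60.7% in the top PyMT members, and a UMI in 160 of 568 Met-1 and 39 of 138 PyMT members. H2-M2 was less concentrated, at 53.0% in the Met-1 transplant and 51.1% in the PyMT tumour. Cells with the interferon-induced gene Ifit3 were few, 85 of 568 Met-1 members and 16 of 138 PyMT members.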
